A study of Mus musculus with 12 samples.

Results

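Apolipoproteins are the proteins that build lipoprotein particles, hold them in solution and direct them to enzymes and receptors. This account follows 10 of their genes, Apoa1, Apoa2, Apoa4, Apoa5, Apob, Apoc1, Apoc2, Apoc3, Apoe and Apom, chosen by symbol from the 21004 genes of the expression table, and all 10 were found and passed the filter on low values. The values come from RNA sequencing of livers of ICR mice, an outbred strain, at 8 weeks of age, with 3 libraries in each of 4 groups. The groups were busulfan plus L.J. at 10 mg/kg, L.J. alone at 10 mg/kg, busulfan alone, and control. Busulfan is an alkylating drug that crosslinks DNA and depletes marrow and germ-line stem cells. The labels use L.J. without spelling it out, and the series describes its aim as the effect of FMT on liver damaged by busulfan without tying L.J. to FMT. Sex, the dose of busulfan and the times of dosing and sampling are not in the sources used here. Nothing states that the replicates are separate animals, so the p-values below measure the spread between these samples, which may be technical.

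The liver secretes apolipoproteins with the lipid they carry. Apob is the scaffold of very-low-density lipoprotein, Apoa1 and Apoa2 are the main proteins of high-density lipoprotein (HDL), and Apoe is the ligand by which receptors of the LDL receptor family take up remnant particles. The smaller members steer the breakdown of triglyceride in the blood: Apoc2 is the cofactor that lipoprotein lipase needs, Apoc3 opposes lipase action and uptake, and Apoa5 favours it.

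Apolipoprotein mRNAs were among the most abundant of the liver, with Apoe at rank 5 of all genes in the table. In none of 6 comparisons did a member pass an adjusted p of 0.05 (limma, Benjamini-Hochberg over the 10786 genes tested), and across these 60 tests the smallest adjusted p in limma was 0.409 and the largest log2 fold change was 0.75 in size. Few genes were called at all, 0% to 0.250% of those tested, so a count of 0 members sets the family apart from no other genes. Apoe, Apoa2, Apoa1 and Apoc1 made up between 89.7% and 91.3% of the summed FPKM of the 10 genes in every library. Apoa5 had its lowest mean in livers given busulfan plus L.J., and Apoc2 had its highest mean there, and neither passed the test.

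FPKM, fragments scaled by transcript length and library size, summed to between 514647 and 665060 per library, and the depth per library is unknown. The 21 Mup genes, which encode abundant secreted carrier proteins, held 1.36%, 23.9% and 0.0956% of all FPKM in L.J. replicates 1, 2 and 3, and between 11.7% and 36.7% in the other 9 libraries. L.J. replicates 1 and 3 stand apart in this, and the larger differences from L.J. are given also without them, which leaves 1 L.J. library. Across genes, libraries within a group had Pearson correlations of 0.943 to 0.989. Hepatocyte markers, 8 of 8 tested, summed to between 34856 and 60920 FPKM. Alb, the largest of them, ran from 16134 to 40506 FPKM, so the sum leans on it and is no measure of hepatocyte number. Of 9 enterocyte markers, a cell type that also makes Apob and Apoa4, 1 was tested, Fabp2, and their sum ran from 20.2 to 56.7 FPKM. Fabp2, at 19.6 to 56.6 FPKM, made up nearly all of it. The highest value of any other marker on the list was 0.61 FPKM, for Vil1, and Lct, Sis, Cdx1 and Cdx2 were at 0 in every library. In bulk tissue, fewer cells of a type and less RNA per cell cannot be told apart.

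The levels spanned a wide range. Averaged over the 12 libraries, Apoe had 10555 FPKM and ranked 5 among all genes of the table. Apoa2 followed at 9916 FPKM with rank 7, Apoa1 at 7224 FPKM with rank 15, Apoc1 at 4565 FPKM with rank 20 and Apoc3 at 2003 FPKM with rank 39. The lower members were Apob at 437 FPKM, Apoa5 at 355 FPKM, Apom at 224 FPKM, Apoa4 at 203 FPKM and Apoc2 at 123 FPKM, the last at rank 532. The ranges over libraries did not overlap between Apoa1 and Apoc1, Apoc1 and Apoc3, or Apoc3 and Apob. The other neighbours overlapped: Apoe lay above Apoa2 in 9 of 12 libraries, and Apom above Apoa4 in 8 of 12. As FPKM is per length, these levels can be set side by side between genes, with the reservation that the quantifier is not given in the sources used here.

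**Figure D1:**
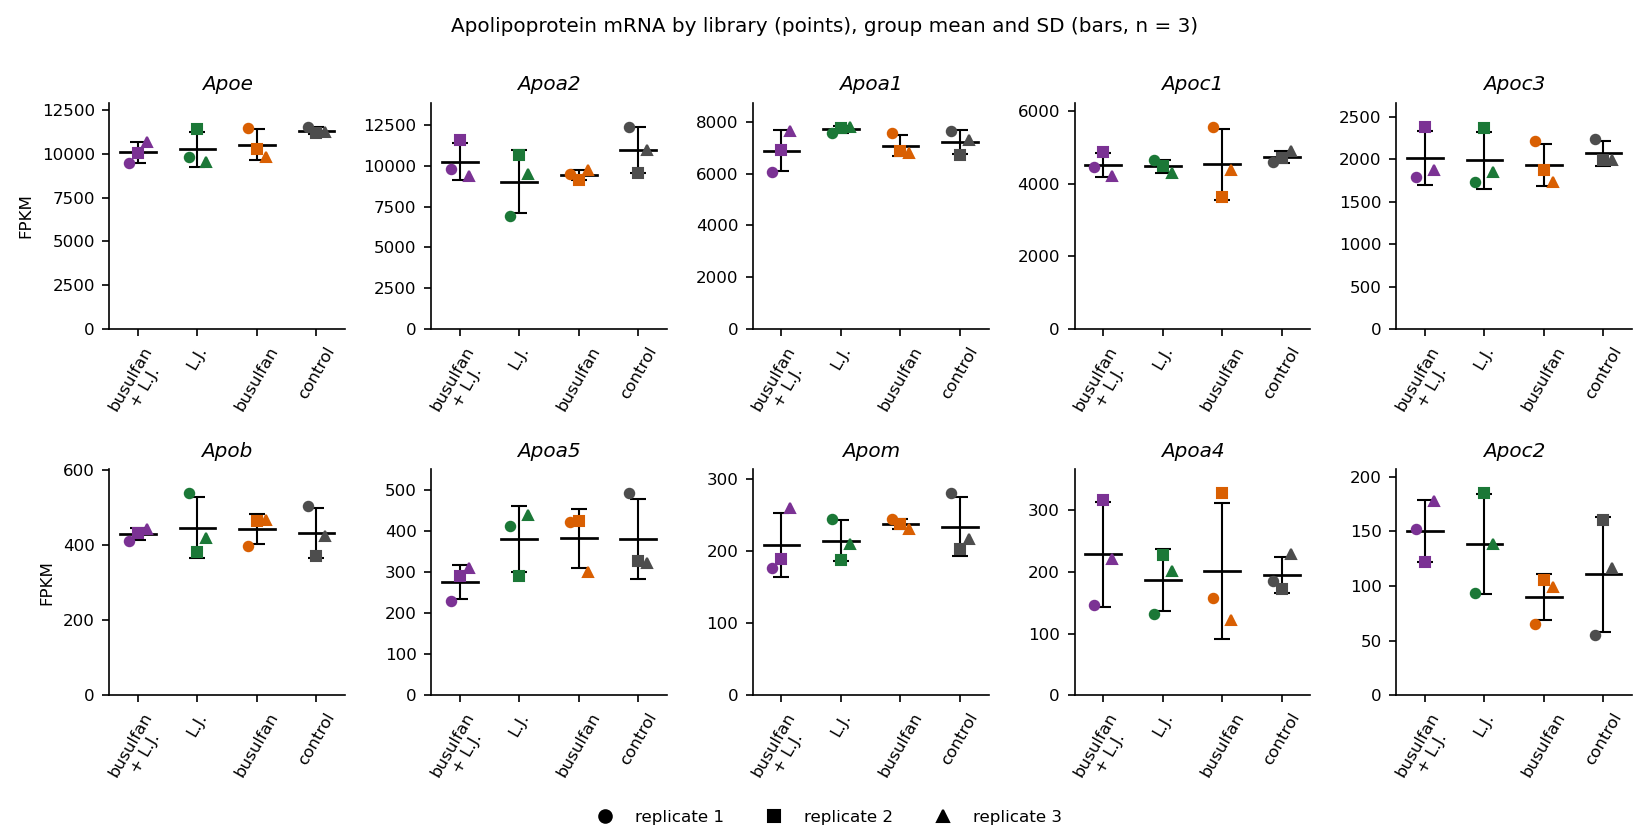
FPKM of the 10 apolipoprotein genes in each library, with a panel for each gene in falling order of mean level, groups on the x axis, and the group mean and SD as bars (n = 3). Libraries of the 4 groups interleave in most panels, while Apoc2 lies lower with busulfan than with busulfan plus L.J., and Apoe and Apoa5 lie lower with busulfan plus L.J. than in control.

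Apoe (gene ID 11816, chr7:19696244-19701310, positions here and below on GRCm38, the assembly also called mm10) was among the steadiest genes of the liver. It had 9488, 10076 and 10694 FPKM in busulfan plus L.J. livers, 9843, 11420.05 and 9528 FPKM in L.J. livers, 11489, 10299 and 9821 FPKM in busulfan livers, and 11535, 11213 and 11255 FPKM in control livers. All busulfan plus L.J. libraries lay below all control libraries, at 10086 ± 603 FPKM with busulfan plus L.J. and 11334 ± 175 FPKM in control (SD, n = 3 each). The fitted log2 difference of busulfan plus L.J. from control was -0.17 (SE 0.23, adjusted p = 0.965 in limma). The pooled spread within groups was 0.101 on the log2 scale, larger than that of 4.58% of the genes tested. The fit moderates each gene toward the spread of genes of its level. Without that trend the SE was 0.11 and the adjusted p in limma 0.844.

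Apoa1 (gene ID 11806, chr9:46228630-46230469), the protein that shapes HDL and activates its cholesterol-esterifying enzyme, was similarly even. It had 6071, 6932 and 7647 FPKM with busulfan plus L.J., 7563, 7772 and 7801 FPKM with L.J., 7569, 6881 and 6807 FPKM with busulfan, and 7634, 6723 and 7286 FPKM in control. The L.J. libraries were the tightest set, at 7712 ± 129.5 FPKM (SD, n = 3), and they overlapped with the control libraries at 7214.5 ± 459.8 FPKM (SD, n = 3). The log2 difference of L.J. from control was 0.10 (SE 0.21, adjusted p = 0.808 in limma) as deposited. It was -0.10 with median-of-ratios scaling, -0.02 with Mup genes left out and 0.61 with quantile normalization, so its sign depends on the scaling. With L.J. replicates 1 and 3 left out it was 0.11.

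Apoa2 (gene ID 11807, chr1:171221564-171226379), another major HDL protein, varied more. It had 9821, 11555 and 9394 FPKM with busulfan plus L.J., 6895, 10687 and 9489 FPKM with L.J., 9469.51, 9107 and 9716 FPKM with busulfan, and 12371, 9535 and 10950.02 FPKM in control. The single low value was L.J. replicate 1, and every pair of groups overlapped. The start of the gene overlaps Tomm40l on the other strand, and since the labels do not say whether the library kit kept strand, reads there cannot be told apart.

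Apoc1 (gene ID 11812, chr7:19689480-19692659), which slows remnant uptake, had 4466, 4878 and 4217 FPKM with busulfan plus L.J., 4647, 4490.06 and 4294 FPKM with L.J., 5561, 3646 and 4382 FPKM with busulfan, and 4595.5, 4696 and 4908 FPKM in control. Both its highest and its lowest library belonged to the busulfan group. Apoc3 (gene ID 11814, chr9:46233050-46235636), the inhibitor of lipase action and uptake, had 1790.27, 2380.21 and 1876 FPKM with busulfan plus L.J., 1734, 2373 and 1853 FPKM with L.J., 2209.99, 1871 and 1728 FPKM with busulfan, and 2242, 1989 and 1988 FPKM in control. The groups overlapped for both genes, and their log2 differences stayed between -0.10 and 0.05 in all 5 comparisons of a pair of groups.

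Apob (gene ID 238055, chr12:7977629-8016839), the large scaffold protein, had 411, 433 and 441 FPKM with busulfan plus L.J., 537, 382 and 419 FPKM with L.J., 396, 464 and 465 FPKM with busulfan, and 503.5, 371 and 423 FPKM in control. Its fitted intervals were the narrowest of the family, though its own spread was not the smallest. Its pooled spread within groups was 0.183 on the log2 scale, against 0.101 for Apoe, 0.105 for Apoa1 and 0.166 for Apoc1. The intervals rest on a spread moderated toward that of genes of the same level. Over the 5 comparisons of a pair of groups, the 95% limma intervals reached from 0.748-fold to 1.33-fold, for values as deposited and without adjustment over genes. The mRNA editing that shortens the protein cannot be seen in a table of gene totals.

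Apom (gene ID 55938, chr17:35128997-35131801), an HDL protein that carries a signalling lipid, had 177, 189 and 259.9 FPKM with busulfan plus L.J., 245, 188.5 and 211 FPKM with L.J., 245, 238 and 231 FPKM with busulfan, and 280.55, 203 and 218 FPKM in control. The busulfan libraries were the closest set, at 238 ± 6.99 FPKM (SD, n = 3), inside the ranges of busulfan plus L.J. and of control. Apoa4 (gene ID 11808, chr9:46240844-46243458), a protein of chylomicrons and HDL made mostly by the gut, had 147, 317 and 221 FPKM with busulfan plus L.J., 132, 228 and 201 FPKM with L.J., 157, 328 and 121 FPKM with busulfan, and 185, 172 and 228 FPKM in control. Apoa4 was among the more variable genes, with a pooled spread of 0.517 on the log2 scale that exceeded that of 94.9% of genes tested, and its highest and lowest libraries were both busulfan ones. A fold up to 2.07 in one direction or down to 0.542 in the other lay within its 95% limma intervals. Antisense genes annotated over Apoa4 and over Apoa5 could share reads with them.

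**Figure D2:**
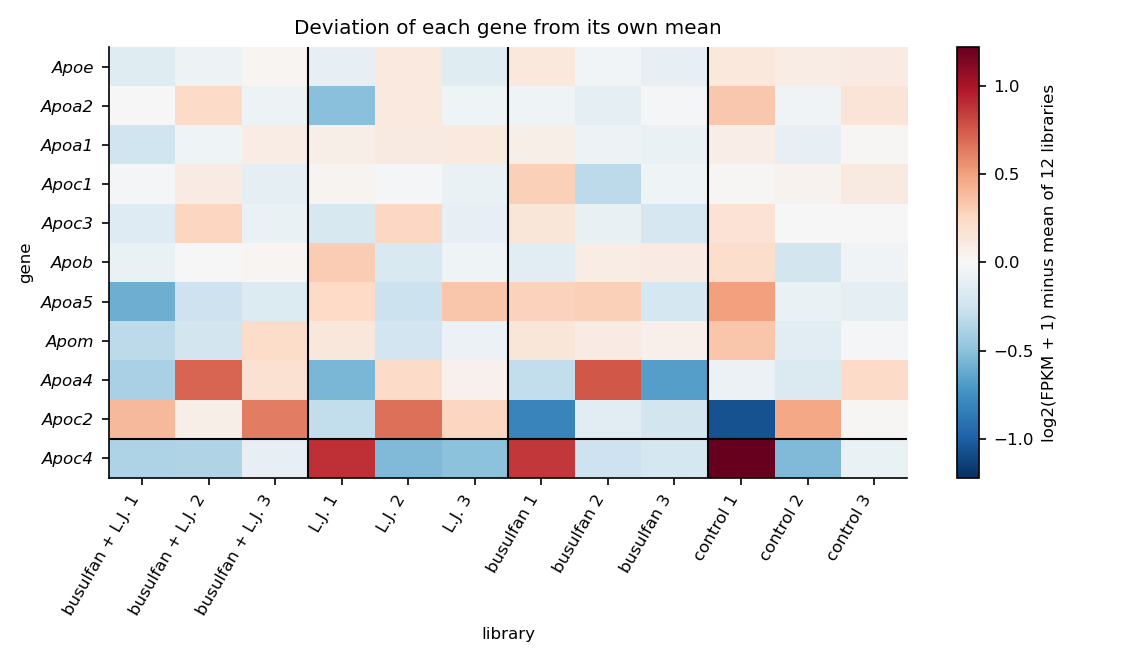
Difference of log2(FPKM + 1) from the gene's own mean over 12 libraries, for each apolipoprotein gene (rows) and library (columns), with Apoc4 under the line for comparison and black lines between groups. Apoe and Apoa1 are pale throughout, Apoa4 and Apoc2 are the most coloured members, and Apoc4 is high in replicate 1 of L.J., busulfan and control, where Apoc2 is low.

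Apoc2 (gene ID 11813, chr7:19671579-19677941), the lipase cofactor, gave the largest difference of the family. It had 152, 122 and 178 FPKM with busulfan plus L.J., 93.5, 185 and 138 FPKM with L.J., 65.6, 105 and 98.9 FPKM with busulfan, and 54.9, 160.3 and 117 FPKM in control. All busulfan plus L.J. libraries lay above all busulfan libraries, and no other pair of groups was apart. The log2 difference of busulfan plus L.J. from busulfan was 0.75 (SE 0.36, 95% interval -0.04 to 1.54, adjusted p = 0.99995 in limma), so it did not pass. Across 23 other settings of the processing it ran from 0.51 to 0.89. The values against control turned on single control libraries. The log2 difference of L.J. from control was 0.40, and -0.03 without control replicate 1 and 0.73 without control replicate 2. That of busulfan from control was -0.20, and -0.63 without control replicate 1 and 0.13 without control replicate 2. That of busulfan plus L.J. from control was 0.55, and 0.12 without control replicate 1 and 0.88 without control replicate 2.

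Apoc2 lies directly downstream of Apoc4 (gene ID 11425, chr7:19678084-19681460), another apolipoprotein gene on the same strand, and GENCODE annotates a gene that reads through both, Gm44805 (chr7:19671584-19681423). Most of the stretch between the RefSeq ends of the pair, 141 of its 142 bases, is shown because a transcript that crosses it cannot be assigned to either gene by its position alone. It is given for the minus strand, on which both are transcribed, at chr7:19677942-19678082, and has no capitals because no motif is marked.
Apoc4 to Apoc2 gap: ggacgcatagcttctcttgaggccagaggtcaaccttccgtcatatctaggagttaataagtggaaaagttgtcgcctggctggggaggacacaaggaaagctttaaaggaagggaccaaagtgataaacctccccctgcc

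Apoc4 and Gm44805 were high together in libraries where Apoc2 was low. Apoc4 had 358, 359.7 and 434 FPKM with busulfan plus L.J., 865, 319 and 329 FPKM with L.J., 843, 391 and 402 FPKM with busulfan, and 1084, 320.35 and 439 FPKM in control. Gm44805 had 12.4, 77.5 and 33.3 FPKM with busulfan plus L.J., 118, 30.2 and 51.1 FPKM with L.J., 120.15, 38.8 and 64.5 FPKM with busulfan, and 103, 7.5 and 14.0 FPKM in control. This was so in replicate 1 of L.J., busulfan and control, and replicate 1 of busulfan plus L.J. did not share it. The ratio of Apoc4 to Apoc2 was 9.24 in L.J. replicate 1, 12.9 in busulfan replicate 1 and 19.7 in control replicate 1, against 1.73 to 4.06 in the other 9 libraries. How the quantifier shared reads among these rows is not given in the sources used here, and its part in the Apoc2 values was not tested.

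Over the 12 libraries, Polr2a, which encodes the largest subunit of RNA polymerase II, had the pattern most like that of Apoc2, with a root mean square difference of 0.222 on the centred log2 scale, and Taf15 came next at 0.238. Polr2a had 19.5, 22.1 and 22.3 FPKM with busulfan plus L.J., 15.5, 25.0 and 28.8 FPKM with L.J., 11.1, 18.4 and 17.25 FPKM with busulfan, and 6.99, 22.25 and 19.0 FPKM in control. Its 3 lowest values fell in the libraries with high Apoc4. The labels name no batch for replicate 1.

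**Figure D3:**
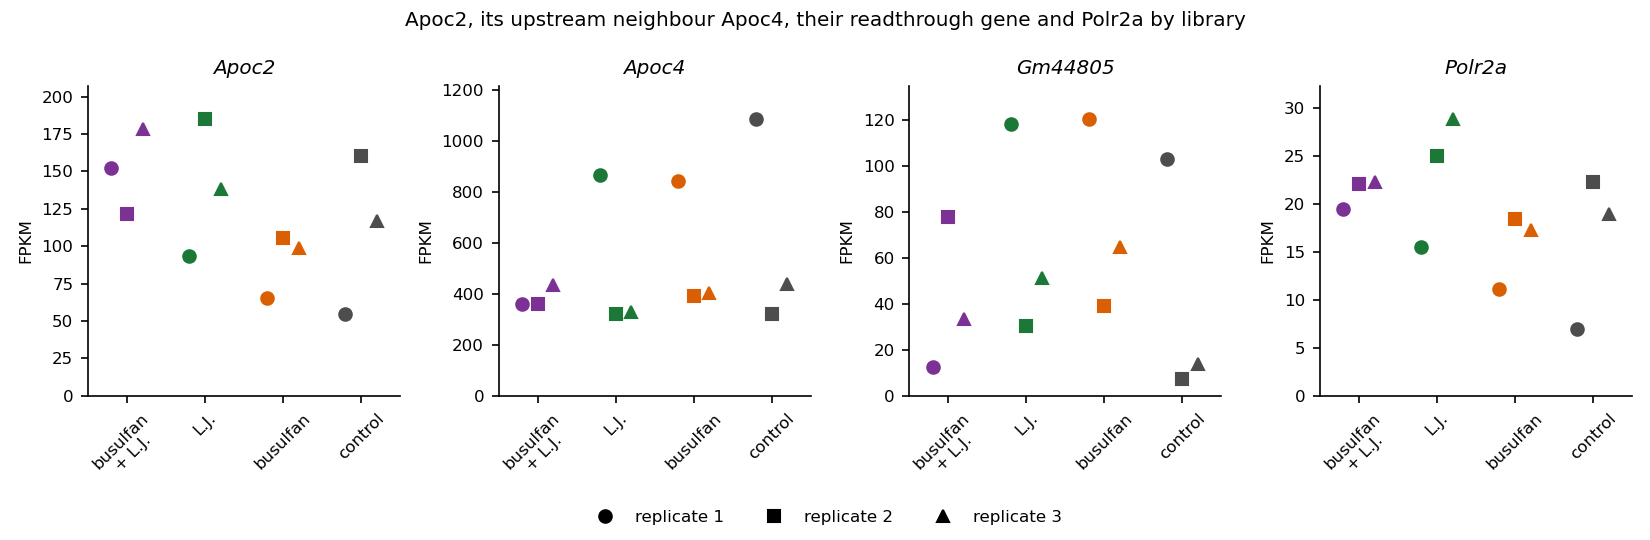
FPKM of Apoc2, Apoc4, the readthrough gene Gm44805 and Polr2a in each library, with groups on the x axis and replicate numbers as symbols. Circles, replicate 1, are high for Apoc4 and Gm44805 and low for Apoc2 and Polr2a in L.J., busulfan and control, and not in busulfan plus L.J.

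Apoa5 (gene ID 66113, chr9:46268608-46271921), a scarce plasma protein that helps triglyceride clearance, had its lowest mean with busulfan plus L.J. It had 229.8, 291 and 309 FPKM with busulfan plus L.J., 411, 289 and 439.96 FPKM with L.J., 422, 426 and 299.6 FPKM with busulfan, and 492, 328 and 322 FPKM in control. The busulfan plus L.J. libraries all lay below the control libraries, and the ranges overlapped with those of L.J. and of busulfan. The mean was 277 ± 41.7 FPKM with busulfan plus L.J., 380.3 ± 79.9 FPKM with L.J., 382 ± 71.7 FPKM with busulfan and 381 ± 96.5 FPKM in control (SD, n = 3 each). The log2 difference of busulfan plus L.J. was -0.44 from control (adjusted p = 0.754 in limma), -0.46 from busulfan (adjusted p = 0.99995 in limma) and -0.45 from L.J. (adjusted p = 0.409 in limma), each with an SE of 0.23. These comparisons share the busulfan plus L.J. libraries. With library weights, whose estimation stopped before it converged, the difference from L.J. passed, at -0.55 (adjusted p = 0.0319 in limma). In that setting 2600 of the 10786 genes tested were called. With L.J. replicates 1 and 3 left out the Apoa5 difference from L.J. was -0.08.

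The 250 bases before the RefSeq start of Apoa5 are shown because the gene had the most negative fitted differences of busulfan plus L.J. from each other group among the members, and capitals mark the TATAAA hexamer, which begins 31 bases before the start. They lie at chr9:46268358-46268607 on the plus strand, from RefSeq on GRCm38.p6.
Apoa5 upstream: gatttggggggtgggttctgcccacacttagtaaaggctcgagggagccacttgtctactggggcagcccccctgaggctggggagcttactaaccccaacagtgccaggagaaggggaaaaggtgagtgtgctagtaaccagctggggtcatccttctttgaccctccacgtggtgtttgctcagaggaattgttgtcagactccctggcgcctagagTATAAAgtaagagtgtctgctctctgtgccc

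RefSeq windows were found for 8 of the 10 members, 12 windows in all with alternative starts, some of them overlapping. TATAAA, searched on both strands, was in 5 of these 12 windows, those of Apoa2, Apoa5, Apob and Apoe, against 12.4% of 32851 promoter windows of the same length. Overlapping Apoa5 windows hold the same hexamer, 31 and 56 bases before their starts, so the 5 windows are not independent. CAAAGTC, the core of the DNA element of the nuclear receptor encoded by Hnf4a, was in 0 of 12, against 3.84% of all, and TTCNNNGAA, the core read by STAT proteins, in 0 of 12, against 7.02% of all. None of the 3 motifs contains another, and a match describes the letters only.

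The gene with the pattern most like that of Apoa5 was its neighbour Zpr1 (chr9:46273064-46282643), which encodes a zinc finger protein and starts 1142 bases past the end of Apoa5. The root mean square difference was 0.128 over the 12 libraries, and Marchf5 came next at 0.12994. Zpr1 had 7.42, 8.78 and 9.67 FPKM with busulfan plus L.J., 14.3, 10.9 and 14.8 FPKM with L.J., 15.2, 15.6 and 11.55 FPKM with busulfan, and 15.02, 13.35 and 10.1 FPKM in control. Its busulfan plus L.J. libraries lay below all other 9. Since Zpr1 was picked for this likeness, its values are a description, and its own log2 difference of busulfan plus L.J. from busulfan was -0.65 (SE 0.17, adjusted p = 0.748 in limma).

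**Figure D4:**
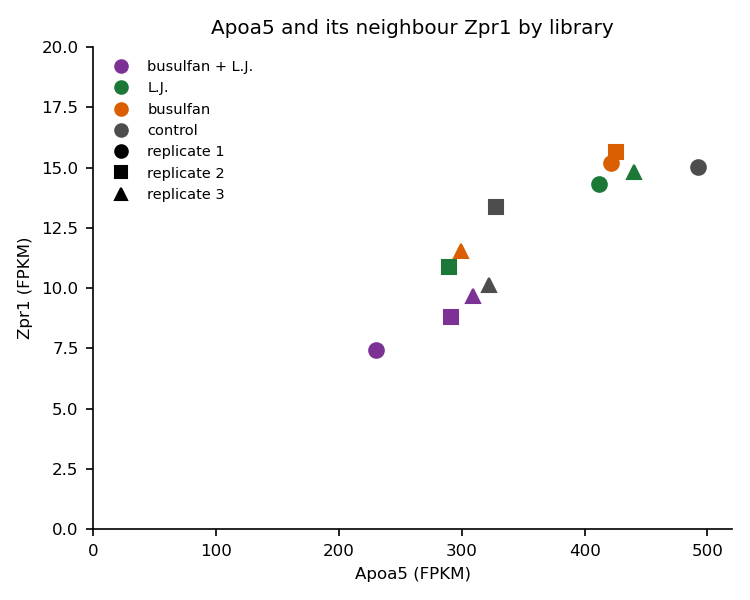
FPKM of Zpr1 (y axis) against Apoa5 (x axis), each point a library, with colours for groups and symbols for replicate numbers. The busulfan plus L.J. libraries lie at 229.8 to 309 FPKM of Apoa5 and 7.42 to 9.67 FPKM of Zpr1, and are apart from the others on the Zpr1 axis only. L.J. replicate 2, at 289 FPKM of Apoa5, and busulfan replicate 3, at 299.6 FPKM, lie within their Apoa5 range. Control replicate 1 has the highest Apoa5 value.

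Patterns of genes in one cluster ranged from alike to unlike, and the closest pair of members lay in different clusters. Apoa1, Apoc3, Apoa4 and Apoa5 lie within 43292 bases of chromosome 9, and Apoc2, Apoc1 and Apoe within 29732 bases of chromosome 7. The closest pair of members by root mean square difference was Apoa1 with Apoe, on different chromosomes, at 0.115. Within the chromosome 9 cluster, Apoa1 and Apoc3 differed by 0.162, Apoa1 and Apoa5 by 0.262, and Apoa4 and Apoa5 by 0.522. On chromosome 7, Apoc1 and Apoe differed by 0.137 and Apoc2 and Apoe by 0.551. This measure is small for any pair of steady genes, so it ranks Apoe and Apoa1 near many genes.

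Nearest to the other members outside the family were genes of other functions. Apoa2 was closest to Eci1, an enzyme of unsaturated fatty acid oxidation, at 0.0893, then to Tmem25. Apoa4 was closest to Slc10a2, a bile acid transporter, at 0.25, then to Hsd17b7. Apoc3 was closest to Lamtor2 at 0.0492 and then to Etfb, an electron carrier of fatty acid oxidation. Apoc1 was closest to Ndufb4, Apob to Htt and Vps8, Apoe to Fcf1 and Mettl8, Apoa1 to Afg3l2 and Ogdh, and Apom to Hbp1 and Cfap20. Htt and Vps8 had means of only 2.16 and 1.31 FPKM. At such levels the 1 FPKM added before the log damps relative changes, so their likeness to Apob depends on that scale.

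The comparison of L.J. with control addresses the effect of L.J. without the drug. In it 0 of 10 apolipoproteins passed, against 0.250% of the 10786 genes tested, 21 of which rose and 6 fell. No member had libraries that were apart between these groups, against 20.8% of genes tested. The members' median log2 difference was -0.08, with 4 of 10 above 0, and that of all genes was 0.17, with 77.1% above 0. With median-of-ratios scaling the median of all genes was 0.006 and that of the members -0.28. The members' median was -0.20 with Mup genes left out and the rest rescaled, and 0.04 with quantile normalization. Of these scalings only quantile normalization gave a positive median. The largest member values were those of Apoc2 at 0.40 and Apoa2 at -0.30, each with an interval that includes 0. With L.J. replicates 1 and 3 left out, which leaves 1 L.J. library, Apoc2 was at 0.87 and Apoa2 at -0.03, and the median was -0.0081 over the members and 0.03 over all genes.

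Busulfan versus control asked what the drug did, and 0 of 10 members passed, against 0% of all genes (139 genes had an unadjusted p under 0.05 in limma, none of them a member). No member's groups were apart, against 5.92% of genes. The members' median was -0.08 and that of all genes 0.04. Apoa2 had 9431 ± 306 FPKM with busulfan and 10952 ± 1418 FPKM in control (SD, n = 3 each), a log2 difference of -0.21 (adjusted p = 0.99995 in limma). Apob, Apom and Apoa5 differed by 0.04, 0.04 and 0.02 on the log2 scale.

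Busulfan plus L.J. was set against control for both treatments together, against busulfan for the addition of L.J., and against L.J. for the addition of busulfan. Against control 0 of 10 members passed, against 0% of all genes (748 at an unadjusted p under 0.05 in limma), and 2 members, Apoa5 and Apoe, had libraries that were apart, against 11.8% of genes. Against busulfan 0 of 10 passed, against 0% of all genes (402 at an unadjusted p under 0.05 in limma), and 1 member, Apoc2, was apart, against 9.99% of genes. Against L.J. 0 of 10 passed, against 0.0278% of all genes, and none was apart, against 13.0% of genes. The members' medians were -0.07, -0.01 and -0.01 in that order, beside 0.04, 0.002 and -0.13 over all genes. With median-of-ratios scaling the median of all genes against L.J. was -0.0013 and that of the members 0.15. The members' medians were -0.07, -0.01 and 0.11 with Mup genes left out, and -0.04, 0.08 and -0.14 with quantile normalization. With L.J. replicates 1 and 3 left out, the members' median against L.J. was -0.07 and that of all genes 0.01.

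The interaction, which asks whether the effect of L.J. differed with and without busulfan, gave 0 of 10 members, against 0% of all genes (705 at an unadjusted p under 0.05 in limma, no member among them). The largest member values were -0.46 for Apoa5 and 0.41 for Apoa2, and with L.J. replicates 1 and 3 left out they were -0.09 and 0.14. The members' median was 0.09, beside -0.17 over all genes, 0.29 beside -0.0058 with median-of-ratios scaling, and -0.03 beside -0.02 with L.J. replicates 1 and 3 left out. Where no member passed, the intervals give the differences that the moderated spread allows, for values as deposited and without adjustment over genes. Moderation toward genes of the same level widened those of Apoe and Apoa1, whose SE for L.J. versus control was 0.23 and 0.21. Without the trend that SE was 0.11 for both, so their limits do not reflect their own scatter alone. Over the comparisons of a pair of groups the intervals reached 0.63-fold and 1.39-fold for Apoe and 0.644-fold and 1.48-fold for Apoa1. They reached 0.512-fold and 1.44-fold for Apoa5, and 0.504-fold and 2.91-fold for Apoc2. Another scaling can go past these limits. With quantile normalization, L.J. versus control was at 0.61 for Apoa1 and 0.53 for Apoe on the log2 scale. The upper limits as deposited were 0.56 and 0.47. With Mup genes left out, the same comparison was at -0.02 for Apoa1 and -0.27 for Apoe.

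**Figure D5:**
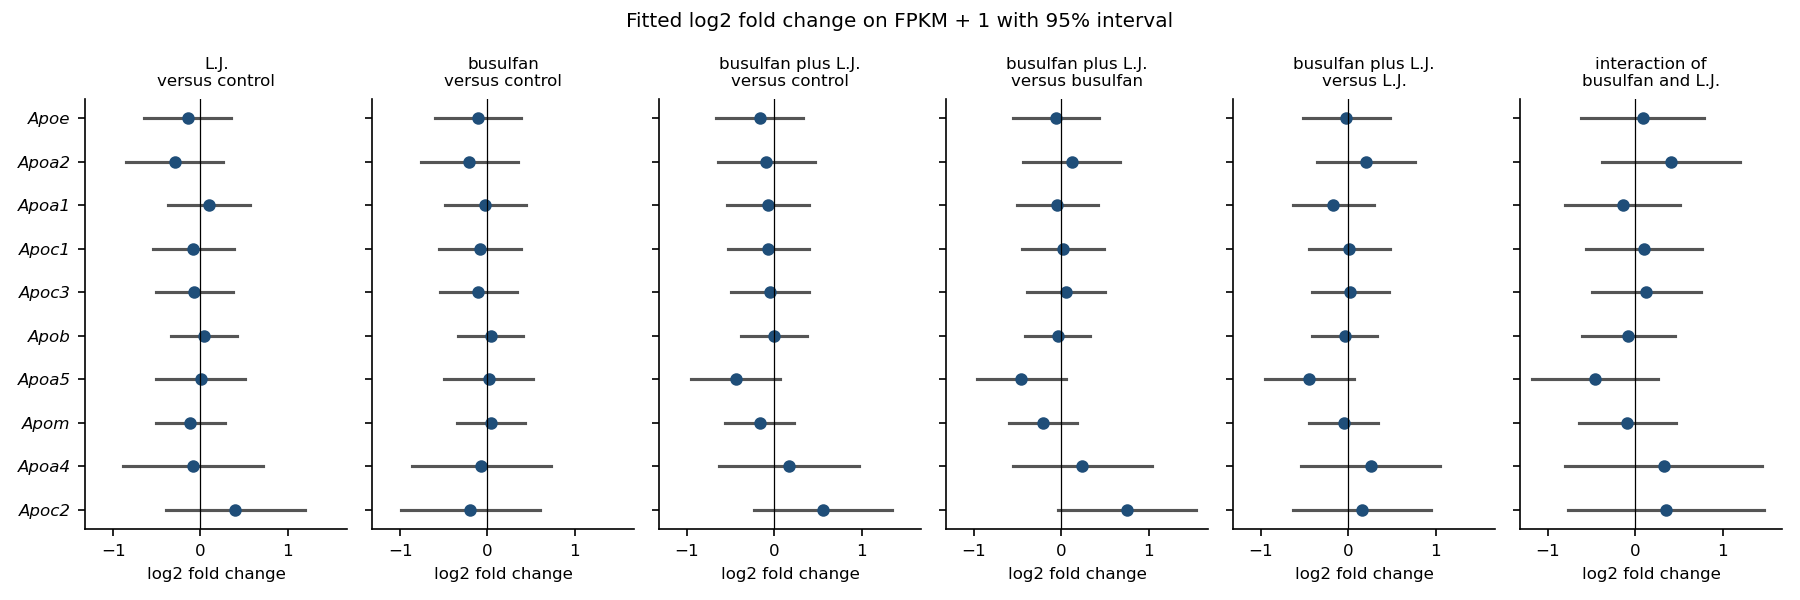
Fitted log2 fold change of each apolipoprotein (rows, in falling order of level) with its 95% limma interval, in a panel for each of 6 comparisons, on log2(FPKM + 1). Every interval includes 0, and the widest belong to Apoa4 and Apoc2.

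Other genes of lipoprotein metabolism gave 3 calls, all in L.J. versus control, where 0.250% of all genes tested were called, against 0% to 0.0278% in the other comparisons. Of 16 genes of lipoprotein assembly and secretion, 15 of receptors and uptake and 27 of transcriptional regulators tested, 0 rose and 0 fell in each of the 6 comparisons by limma. In L.J. versus control the assembly genes with the smallest p were Pdia3, a folding enzyme, with 262 ± 12.9 FPKM in L.J. livers and 171 ± 22.7 FPKM in control livers (SD, n = 3 each, adjusted p = 0.0803 in limma), then Tm6sf2, Hspa5 and Surf4. Among the receptors it was Sdc1, a proteoglycan that binds remnants, with 79.6 ± 19.6 FPKM in L.J. livers and 46.3 ± 11.2 FPKM in control livers (SD, n = 3 each, adjusted p = 0.0964 in limma). The assembly genes had a median log2 difference of 0.21 and the receptors 0.41, beside 0.17 over all genes. With L.J. replicates 1 and 3 left out these medians were 0.16, -0.06 and 0.03, and Pdia3 was at 0.54 and Sdc1 at 0.34.

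Among the regulators, Hnf4a, which drives many apolipoprotein genes, had 155, 129 and 184 FPKM in L.J. livers and 105, 119 and 119.98 FPKM in control livers. The L.J. libraries all lay above the control ones, and the log2 difference of 0.43 did not pass (adjusted p = 0.124 in limma). Ppara, a fatty acid receptor known to lower Apoc3 transcription, had 23.3 ± 2.22 FPKM in L.J. livers and 31.2 ± 2.355 FPKM in control livers (SD, n = 3 each, adjusted p = 0.105 in limma). With L.J. replicates 1 and 3 left out, Hnf4a was at 0.17 and Ppara at -0.37 on the log2 scale. Nr1d1, a repressor of the circadian clock that also acts on Apoc3, had 3.64, 3.25 and 3.5 FPKM with busulfan plus L.J. and 14.1, 85.55 and 73.9 FPKM in control (adjusted p = 0.24957 in limma). Hours of sampling are not in the sources used here.

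Of 18 lipases, remodelling enzymes and their regulators, 0 rose and 1 fell in L.J. versus control, and 0 were called in the other 5 comparisons. Angptl4, a secreted inhibitor of lipoprotein lipase, fell: it had 8.92, 12.9 and 12.6 FPKM in L.J. livers and 37.1, 59.98 and 33.9 FPKM in control livers, a log2 fold change of -1.81 (SE 0.27, adjusted p = 0.0183 in limma). In busulfan plus L.J. livers it had 10.8, 9.37 and 11.9 FPKM and in busulfan livers 58.5, 27.9 and 40.6 FPKM, with no overlap, and that difference of -1.83 did not pass (adjusted p = 0.207 in limma). The L.J. call was lost in 8 of 23 other settings, in which the largest adjusted p in limma was 0.28963 (with L.J. replicates 1 and 3 left out, at -1.64), among them without control replicate 2 (0.0619) or 3 (0.0852), without L.J. replicate 1 (0.0679) or 3 (0.0584) and with the replicate number as a block (0.0505).

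Of 18 other apolipoproteins and HDL-associated proteins, 2 rose and 0 fell in L.J. versus control, and 0 were called elsewhere. Saa1, an acute-phase protein that travels on HDL, had 4454, 468 and 4029.83 FPKM in L.J. livers and 79.3, 57.9 and 49.1 FPKM in control livers, a log2 fold change of 5.04 (SE 0.72, adjusted p = 0.0172 in limma). Its near-identical paralog Saa2 rose by 5.54 on the log2 scale (adjusted p = 0.0428 in limma), and reads of the pair may be split wrongly between them. The calls were lost in 6 and 11 of 23 other settings. Saa1 lost its call without control replicate 2 (adjusted p = 0.0619 in limma) or 3 (0.0852) or L.J. replicate 3 (0.0623). Saa2 lost its call without busulfan replicate 1, 2 or 3, busulfan plus L.J. replicate 2, control replicate 2 or 3, or L.J. replicate 1 or 3 (0.0703 to 0.179). Both calls were also lost with no filter on low values (adjusted p = 0.0531 and 0.0805 in limma) and with the compared groups alone (0.226 and 0.228). With both L.J. replicates 1 and 3 left out, Saa1 was at 2.92 (adjusted p = 0.219 in limma) and Saa2 at 3.19 (adjusted p = 0.514 in limma). Neutrophil markers summed to between 13.2 and 145.62 FPKM in L.J. livers and between 7.35 and 9.09 FPKM in control livers, with 3 of 6 tested, and their part in these values was not tested.

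Set against these acute-phase proteins, Apoa1 mRNA outnumbered Saa1 mRNA per length by 1.70, 16.6 and 1.94 to 1 in L.J. livers, and by 96.2, 116 and 149 to 1 in control livers. In busulfan plus L.J. livers the ratio was 65.9, 57.1 and 28.1, and in busulfan livers 49.95, 90.67 and 75.4. Since reads of Saa1 and Saa2 may be split wrongly, the ratio to both summed is safer, and it was 0.861, 9.58 and 1.02 in L.J. livers and 53.0, 79.5 and 94.0 in control livers, so Apoa1 mRNA was the smaller in L.J. replicate 1. The L.J. ratios are the lowest of the 12 on either count, and the Apoa1 values behind them overlapped with control.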

How the data were processed

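The 12 liver libraries share 1 table of 21004 genes, which the authors deposited as FPKM. The submitters' processing notes name Bowtie 0.12.2 and mm10. The quantifier is not given in the sources used here, nor is its annotation, and no counts were used, so depth and counting error are unknown and no interval for them is given. Symbols stored as dates were restored through gene IDs, of which 99.2% matched RefSeq on GRCm38.p6.

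The test covered the 10786 genes that reached 1 FPKM in 3 or more libraries. On log2(FPKM + 1), 4 group means were fitted to the 12 libraries with limma 3.58.1 in R 4.3.3 (8 residual degrees of freedom, eBayes with trend), two-sided, with Benjamini-Hochberg adjustment over all genes tested within a comparison and a threshold of 0.05. Fold changes are on that log2(FPKM + 1) scale. An exact permutation test of 3 against 3 libraries cannot go below 0.1, so none is given. The fit was tested on simulated data with independent noise and the same spread in every group. That test does not cover uneven libraries such as those of L.J. Likeness is the root mean square difference of log2(FPKM + 1), centred per gene, over 12 libraries, and the nearest 2 genes are named, except 1 that is not reported here. From each gene list, those that passed and up to 4 with the smallest p are named. Gm44805 and the Apoc4 values by library were chosen after their values were seen.

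The members and lists were chosen with earlier results of these data known. Deviations across genes of libraries with the same replicate number were correlated between groups, for numbers 1, 2 and 3 in that order. The values were 0.399, 0.157 and 0.110 for busulfan with control, and 0.283, 0.117 and 0.052 for busulfan with L.J. They were 0.384, 0.140 and -0.068 for control with L.J. For busulfan plus L.J. they were -0.286, -0.108 and -0.083 with control, -0.243, -0.227 and 0.044 with L.J., and -0.081, 0.007 and 0.018 with busulfan. Libraries of different numbers were not compared, so pairing was not tested, and the labels name none. The number as a block was an alternative, beside other pseudocounts, filters, scalings, library weights, the compared groups alone, each library left out, and moderation without the trend.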

Additional observations from a re-analysis of the deposited data

Results flagged for a closer look

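Apoa2 was picked out because its libraries moved in opposite directions with busulfan in the absence and presence of L.J. It had 9821, 11555 and 9394 FPKM with busulfan plus L.J., all above the L.J. mean of 9024 FPKM, and 9469.51, 9107 and 9716 FPKM with busulfan, all below the control mean of 10952 FPKM. The difference between both effects, the interaction, was 0.41 on the log2 scale (SE 0.36, adjusted p = 0.742 in limma), so the test of the difference did not pass. L.J. replicate 1, at 6895 FPKM, was the lowest of the 12 libraries, and without it the interaction was 0.23 (adjusted p = 0.980 in limma).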

How the results depend on the processing

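No apolipoprotein passed under any of 23 other settings, except Apoa5 between busulfan plus L.J. and L.J. with library weights, where 1 member passed (-0.55, adjusted p = 0.0319 in limma). Of 1370 refitted member values, 120 changed sign, all of values that had not passed. Many of the 1370 could not change, so this share understates how far signs depend on the processing. Other filters, the replicate block, moderation without the trend and the compared groups alone leave a fold change as it was. So does leaving out a library of a group not compared. The number of genes called among all tested depended much more on the setting. In L.J. versus control it was 27, and 11 with no filter, 99 with median-of-ratios scaling, 114 without Mup genes, 63 with quantile normalization, 4250 (library weights), 0 with the compared groups alone and 7 with L.J. replicates 1 and 3 left out. Leaving out 1 library gave 1 to 1800: 1800 without L.J. replicate 2, 5 without L.J. replicate 3, 70 (control replicate 1), 5 (control replicate 2), 1 (control replicate 3), 17 (busulfan replicate 1) and 15 without either of busulfan replicates 2 and 3. In busulfan versus control, 0 became 1 with library weights, with the compared groups alone and without control replicate 1 (range 0 to 1). In busulfan plus L.J. versus control, 0 became 1 with no filter and with median-of-ratios scaling, 729 with library weights, 3 with the compared groups alone, 3 with L.J. replicates 1 and 3 left out, and 0 to 6 with 1 library left out (6 without L.J. replicate 2, 5 without control replicate 1, 1 without busulfan plus L.J. replicate 2). Against busulfan, 0 became 1 with no filter and 70 (library weights), and stayed 0 with any library left out. Against L.J., 3 became 1 with median-of-ratios scaling, without Mup genes, with quantile normalization and with the replicate block, 2600 (library weights), and 0 to 1164 with 1 library left out: 1164 without L.J. replicate 2, 8 and 5 without control replicates 1 and 2, 0 without L.J. replicate 1, control replicate 3, busulfan replicates 1 and 2 or busulfan plus L.J. replicate 3, and 1 without busulfan replicate 3 or busulfan plus L.J. replicate 1. In the interaction, 0 became 1 without Mup genes, 862 with library weights, 2 with L.J. replicates 1 and 3 left out, and 0 to 299 with 1 library left out (299 without L.J. replicate 2). The causes were not tested. With the replicate number as a block no apolipoprotein was called, and Angptl4 lost its call while Saa1 and Saa2 kept theirs, and the count in L.J. versus control was 21. With L.J. replicates 1 and 3 left out, the lone L.J. library is assumed to vary like the other groups. Moderation without the trend was chosen after seeing the data and called 0 members. The estimation of library weights stopped before it converged. Depth is unknown, so what it limits cannot be stated.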
